A study of Mus musculus with 9 samples.

Results

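The left ventricle of mice lacking delta-sarcoglycan (dSG KO) was compared with that of wild-type (WT) mice when neither had received ifetroban. The members were the 2 libraries titled dSG KO-vehicle and the 2 titled WT-vehicle, 4 of the 9 libraries of the study, chosen by genotype and treatment alone. The other libraries came from KO ventricles under ifetroban (3) and WT ventricles under ifetroban (2). They entered the estimate of the spread, and their genotype difference is set beside the one without drug at the end. Ifetroban blocks the receptor for thromboxane and related prostanoids. All libraries were made from polyadenylated RNA of whole left ventricle. The knocked-out exons, the strain, sex and age of the mice, the vehicle and the dosing were not given in the sources used here. Whether each library is a separate mouse is not stated, and every p below therefore reflects differences among libraries that could be technical in part.

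Delta-sarcoglycan, encoded by Sgcd, is 1 of the transmembrane proteins of the sarcoglycan complex, which stabilises the link between dystrophin inside the muscle cell and laminin outside it. Without the complex the sarcolemma tears more easily during contraction, calcium enters and myocytes die. In mice and hamsters, loss of Sgcd leads to cardiomyopathy with focal necrosis, macrophage infiltration and fibrosis. Fibrosis is laid down by fibroblasts that take on an activated state and secrete collagens and other matrix proteins.

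The targeted gene was examined first. Sgcd (ENSMUSG00000020354, chromosome 11, 46896253 to 47988969, minus strand, GRCm38) had 7.49 and 12.1 CPM (read count scaled to the library's total) in KO vehicle, against 11.1 and 28.9 CPM in WT vehicle. With 11.1 CPM the library labelled WT vehicle replicate 1 lay between both KO libraries, so the groups overlapped. Both KO libraries kept Sgcd reads (161 and 304) and the removed exons were not given, so the Sgcd level alone does not give a genotype. That level goes against the label of the library labelled WT vehicle replicate 1, but Pttg1 and Cyfip2, described below, do not. With 76.7 CPM of Pttg1 and 194 CPM of Cyfip2 the same library lay far above both KO libraries. The log2 fold change of Sgcd in KO over WT was -1.04 ± 0.438 (SE, edgeR, adjusted p = 0.381). It was -1.56 when the library labelled WT vehicle replicate 1 was left out, and -0.19 when WT vehicle replicate 2 was. With length offsets, which remove each library's trend with transcript length, it was -0.88. Every difference below includes the library labelled WT vehicle replicate 1 on the WT side.

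Counts assigned to genes were 21299748 and 25457889 in KO vehicle and 21623386 and 25452280 in WT vehicle. The tissue label was set against its markers. The contractile genes Myl2, Tnnt2 and Actc1 were between 5455 and 10950 CPM in all 4 libraries, whereas the atrial genes Myl7, Sln, Bmp10 and Mybphl were at most 0.326 CPM (genes chosen after their values were seen). The whole atrial list of 13 genes summed to 1378 and 1073 CPM in KO vehicle and 411 and 384 CPM in WT vehicle, most of it Nppa, which ventricles under load also express. Of its other members Kcnj3, Tbx5, Kcna5, Stard10, Nr2f2 and Dkk3 reached over 10 CPM in at least 1 library. Among the 4 libraries, principal component 1 (64.4% of their variance) placed KO vehicle replicate 1 at 77.7, with KO vehicle replicate 2 at -11.3, the library labelled WT vehicle replicate 1 at -23.7 and WT vehicle replicate 2 at -42.7. Summed over 24 immediate early genes, the libraries held 3357 and 936 CPM in KO vehicle and 2383 and 889 CPM in WT vehicle. Liver marker genes summed to 109 and 5.44 CPM in KO vehicle and to 5.54 and 3.17 CPM in WT vehicle. Their part in the differences below was not tested. Relative to the mean of all 9 libraries, long transcripts were low in both KO libraries (Spearman -0.290 and -0.322 across genes, which are not independent) and in the library labelled WT vehicle replicate 1 (-0.374), and high in WT vehicle replicate 2 (0.302).

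Without drug, the KO ventricle carried more transcripts of a few secreted matrix and signalling proteins, of the enzyme gene Dio2 and of 1 macrophage gene. It carried far fewer transcripts of Pttg1 and Cyfip2. Of 15261 tested genes 8 were called (0.0524%), of which 6 rose (0.0393%) and 2 fell (0.0131%), at an adjusted p under 0.05 in edgeR's quasi-likelihood test. At an unadjusted p under 0.05, 1260 genes were higher (8.26%) and 649 lower (4.25%). DESeq2 called 373 (2.44%), with 325 higher (2.13%) and 48 lower (0.315%). The median log2 fold change of all tested genes was -0.01, with 5% of genes under -0.78 and 5% over 1.18. More genes passed a 2-fold difference upward (997) than downward (406).

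**Figure D1:**
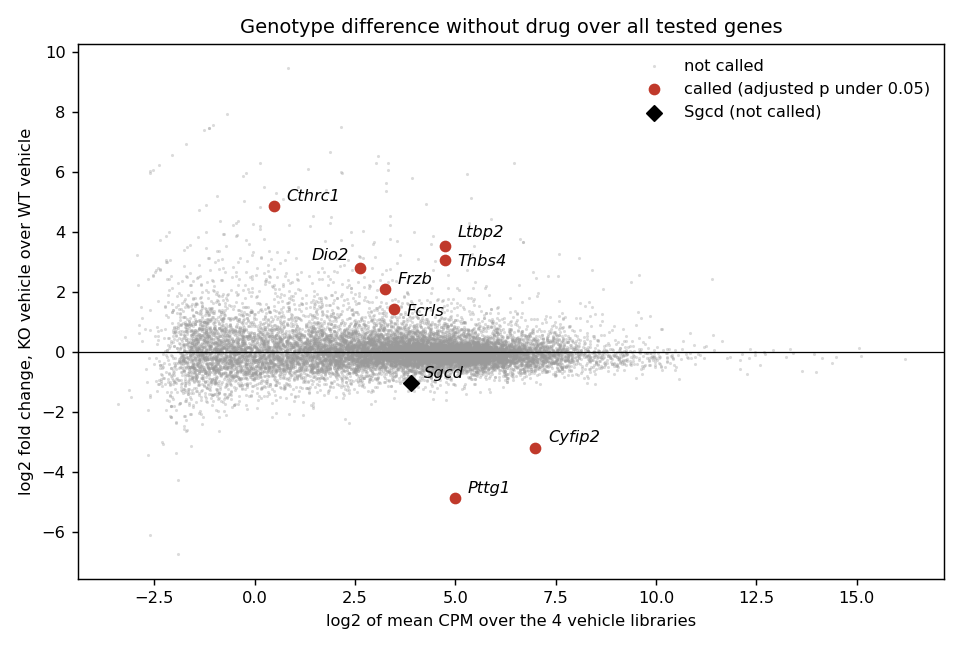
Log2 fold change of KO vehicle over WT vehicle against the log2 of the mean CPM of the 4 vehicle libraries, 1 grey point per tested gene. The 8 called genes are in red and Sgcd, which was not called, is the black diamond. Pttg1 and Cyfip2 are the red points below 0.

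Of the genes that rose, 3 encode matrix proteins on the list of activated fibroblast markers. Which cells of the ventricle made them was not tested. Thbs4, a matricellular thrombospondin (ENSMUSG00000021702, chromosome 13, 92751590 to 92794818), had 61.6 and 33.8 CPM in KO vehicle, against 6.26 and 5.14 CPM in WT vehicle. Both KO libraries were high, KO vehicle replicate 1 most. Its log2 fold change was 3.06 ± 0.295 (SE, adjusted p = 0.0114). Ltbp2, a microfibril-associated relative of the latent TGF-beta binding proteins (ENSMUSG00000002020, chromosome 12, 84783212 to 84876532), had 54.1 and 45.2 CPM in KO vehicle and 2.87 and 5.56 CPM in WT vehicle. The KO libraries lay close together and far above both WT libraries (3.54 ± 0.39, adjusted p = 0.022). Cthrc1, a secreted protein that limits collagen deposition (ENSMUSG00000054196, chromosome 15, 39076932 to 39087121, plus strand), was rare: 37 and 92 reads in KO vehicle, which is 1.72 and 3.65 CPM, against 1 and 3 reads in WT vehicle, 0.0513 and 0.116 CPM. Here KO vehicle replicate 2 was the higher of the KO libraries (4.87 ± 0.639, adjusted p = 0.0475). The ratio of its pooled levels was 31.3, with an exact 95% interval of 12 to 117 that covers counting error only.

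The other genes that rose are not matrix components. Frzb, a secreted Wnt antagonist (ENSMUSG00000027004, chromosome 2, 80411970 to 80447625), had 17.1 and 13.9 CPM in KO vehicle, against 3.64 and 3.55 CPM in WT vehicle, with a log2 fold change of 2.10 ± 0.242 (adjusted p = 0.022). Dio2, the deiodinase that turns thyroxine into the active hormone T3 (ENSMUSG00000007682, chromosome 12, 90724552 to 90738438), had 11.5 and 10.2 CPM in KO vehicle and 1.69 and 1.39 CPM in WT vehicle (2.82 ± 0.353, adjusted p = 0.0378). Fcrls, a scavenger receptor gene of tissue macrophages (ENSMUSG00000015852, chromosome 3, 87250758 to 87263738), had 16.8 and 15.6 CPM in KO vehicle and 6.42 and 5.53 CPM in WT vehicle (1.44 ± 0.193, adjusted p = 0.0486). For all 3 genes the 2 KO libraries differed little from each other and both stood above both WT libraries. In bulk ventricle, more cells of a type and more RNA per cell cannot be told apart.

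RefSeq gives a promoter window for 7 of the 8 called genes on GRCm38.p6, and the windows of Thbs4 and Dio2 are shown because each holds more than 1 match to the motifs searched and lies outside the annotated gene. Each window is the 250 bases before the RefSeq transcription start, 5′ to 3′ on the minus strand. The windows lie at chr13:92794819-92795068 for Thbs4 and chr12:90739039-90739288 for Dio2. For Dio2 the RefSeq start lies upstream of the gene bounds given above. Capitals mark motif matches.
Thbs4: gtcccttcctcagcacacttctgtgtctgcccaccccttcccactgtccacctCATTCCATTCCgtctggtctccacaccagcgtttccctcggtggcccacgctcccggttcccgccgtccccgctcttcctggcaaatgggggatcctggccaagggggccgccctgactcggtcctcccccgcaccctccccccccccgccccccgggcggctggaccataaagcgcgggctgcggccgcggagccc
Dio2: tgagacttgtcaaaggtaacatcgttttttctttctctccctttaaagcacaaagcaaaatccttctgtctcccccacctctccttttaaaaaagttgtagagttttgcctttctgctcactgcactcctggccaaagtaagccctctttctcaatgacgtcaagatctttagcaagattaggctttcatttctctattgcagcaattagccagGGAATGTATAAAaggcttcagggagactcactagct
The motifs were AP-1 (TGANTCA), TEAD (CATTCC), the TATA box (TATAAA) and the SRF CArG box, searched on both strands with overlaps counted. The Thbs4 window had 2 overlapping TEAD matches, 197 to 192 and 192 to 187 bases before the start. In the Dio2 window a TEAD match (on the opposite strand) lay 36 to 31 bases before the start, directly before a TATA match at 30 to 25. Among all 32851 RefSeq windows of this length 12.6% held the TEAD motif, 12.4% the TATA motif, 6.75% AP-1 and 1.47% the CArG box, and the matches are a description only. Ltbp2, Frzb, Pttg1 and Cyfip2 had no match in their windows, and Fcrls had 1 TATA match 217 to 212 bases before its start.

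The 2 genes that fell lie on chromosome 11, as Sgcd does. Pttg1, which encodes securin, the inhibitor of the protease that separates sister chromatids (ENSMUSG00000020415, 43420250 to 43426251), had 1.72 and 2.46 CPM in KO vehicle, against 76.7 and 46.5 CPM in WT vehicle. Its log2 fold change of -4.87 ± 0.298 had the smallest p of all genes (adjusted p = 0.000354). Cyfip2, a subunit of the WAVE complex that starts branched actin networks (ENSMUSG00000020340, 46193850 to 46312859), had 17.5 and 33.0 CPM in KO vehicle and 194 and 266 CPM in WT vehicle (-3.19 ± 0.367, adjusted p = 0.022). In both genes the library labelled WT vehicle replicate 1 lay far above both KO libraries, unlike in Sgcd.

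Pttg1 lies 3.47 Mb and Cyfip2 0.583 Mb from Sgcd. Of 92 other tested genes within 5 Mb of Sgcd, 2 were called lower (0.0131% of all tested genes were) and 0 higher (0.0393% of all). CPM values did not overlap between the groups for 19 of the 92 downward and 9 upward, against backgrounds of 18.2% and 16.8% over all tested genes, and their median log2 fold change was -0.15. Genes there that edgeR did not call had values in either direction. Adra1b, an alpha-1 adrenergic receptor gene, was at 17.3 and 23.3 CPM in KO vehicle and 41.2 and 44.8 CPM in WT vehicle (-1.08 ± 0.279, adjusted p = 0.241). Ublcp1, a phosphatase of the proteasome, was at 14.0 and 16.8 CPM in KO vehicle and 33.7 and 25.7 CPM in WT vehicle (-0.95 ± 0.187, adjusted p = 0.222). Adamts2, a procollagen N-proteinase, was higher in value, at 48.9 and 51.1 CPM in KO vehicle and 22.9 and 26.9 CPM in WT vehicle (1.005 ± 0.237, adjusted p = 0.222).

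**Figure D2:**
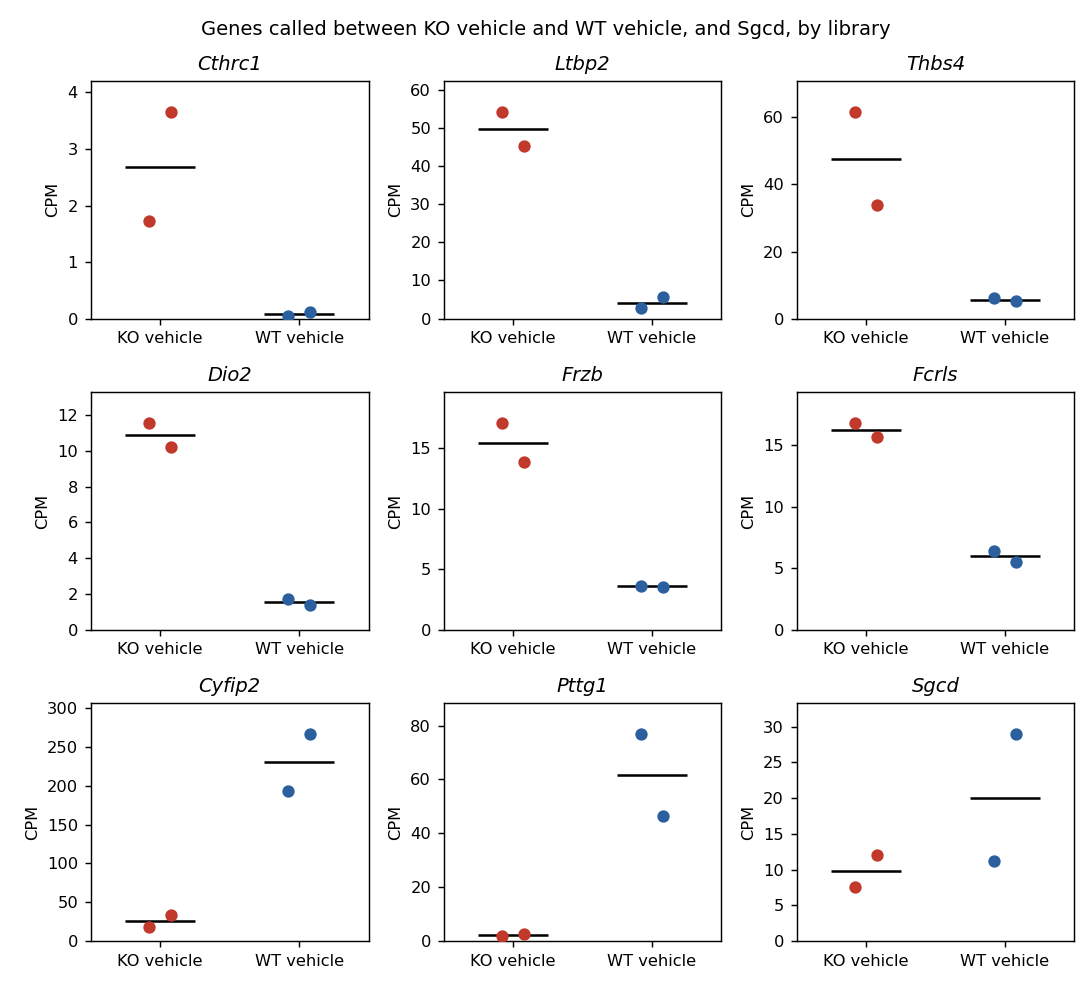
CPM of the 8 called genes and of Sgcd in each vehicle library, with KO vehicle (red) left of WT vehicle (blue), 1 point per library and a bar at the mean. The groups do not overlap for the 8 called genes and overlap for Sgcd, where the library labelled WT vehicle replicate 1 is the lower blue point at 11.1 CPM.

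How many of these calls held depended on single libraries. Pttg1 was called whichever library was left out. All 8 genes kept their direction each time, which follows from groups that do not overlap and is no separate support. Without KO vehicle replicate 1, Pttg1, Thbs4 and Cthrc1 were called and Ltbp2 (adjusted p = 0.095), Frzb (0.0955), Cyfip2 (0.106), Dio2 (0.1252) and Fcrls (0.145) were not. Without either WT vehicle library Pttg1 alone among the 8 was called, with the remaining WT library assumed to vary like the other groups. Without KO vehicle replicate 2, all 8 were called and the totals grew to 1095 higher and 582 lower. The ifetroban libraries enter through the estimate of the spread. With the 4 vehicle libraries alone, Pttg1, Thbs4, Ltbp2 and Cyfip2 were called, and Frzb, Dio2, Cthrc1 and Fcrls were not. With KO ifetroban replicate 1, 2 or 3 left out, 6, 3 and 5 of the 8 genes were still called, and with WT ifetroban replicate 1 or 2 left out, 2 and 5.

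Genes of activated fibroblasts had high values in both KO libraries. Of 16 tested markers 14 had positive log2 fold changes (48.5% of all tested genes did), with a median of 2.15, and 3 were called, the matrix genes above. In 14 the KO values lay entirely above the WT values, against 16.8% of all tested genes, and DESeq2 called 12 higher (2.13% of all). Postn, periostin, was at 138 and 295 CPM in KO vehicle and 40.3 and 37.9 CPM in WT vehicle (2.47 ± 0.385, edgeR adjusted p = 0.102). Tnc and Comp were chosen after their values were seen: Tnc, tenascin-C, was at 146 and 7.43 CPM in KO vehicle and 0.975 and 1.51 CPM in WT vehicle, and Comp, cartilage oligomeric matrix protein, at 13 and 46.4 CPM in KO vehicle and 1.33 and 2.28 CPM in WT vehicle. Tnc was thus high mainly in KO vehicle replicate 1 and Comp mainly in KO vehicle replicate 2. The summed level of the list was 1238 and 1072 CPM in KO vehicle and 365 and 403 CPM in WT vehicle. Without KO vehicle replicate 1 its median was 1.52. Markers of resident fibroblasts had a median of 0.31, with 15 of 16 positive and 6 not overlapping. That median was 0.06 with KO vehicle replicate 2 omitted and 0.49 with replicate 1 of that group omitted.

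Structural collagens had positive values in 15 of 17 tested genes, with a median of 0.82. None was called by edgeR, 7 were higher by DESeq2 (2.13% of all tested genes), and 12 had KO values entirely above WT values (16.8% of all). Col1a1, a chain of type I collagen, was at 265 and 296 CPM in KO vehicle and 113 and 150 CPM in WT vehicle (1.10 ± 0.219, edgeR adjusted p = 0.222). Col8a1, a short-chain collagen of vessel walls, was at 88.6 and 77.3 CPM in KO vehicle and 37.6 and 29.4 CPM in WT vehicle. Col12a1, which decorates fibril surfaces, was at 4.89 and 7.62 CPM in KO vehicle and 0.77 and 1.51 CPM in WT vehicle. The KO libraries lay close together for Col1a1 and Col8a1, and the list's median without KO vehicle replicate 1 was 1.01.

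The enzymes that trim, hydroxylate and cross-link collagen had a median of 0.65, with 21 of 26 positive and 9 higher by DESeq2 (2.13% of all), though the median was 0.34 without KO vehicle replicate 1. Loxl1, a lysyl oxidase that acts on elastin, was at 115 and 81.3 CPM in KO vehicle and 43.3 and 47.7 CPM in WT vehicle (1.11 ± 0.19, edgeR adjusted p = 0.139). Pcolce, an enhancer of procollagen processing, was at 86.5 and 91.4 CPM in KO vehicle and 51.4 and 43.8 CPM in WT vehicle. Elastic fibre and microfibril genes, which include the called Ltbp2, had a median of 0.79 and 13 of 15 positive. Mfap5, a microfibril protein, was at 88.8 and 48.7 CPM in KO vehicle and 26.5 and 13.7 CPM in WT vehicle, and the large proteoglycan gene Vcan at 64.5 and 32.8 CPM in KO vehicle and 17.7 and 16.6 CPM in WT vehicle. Their median ranged from 0.35 without the library labelled WT vehicle replicate 1 to 1.42 without WT vehicle replicate 2.

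Small leucine-rich proteoglycans and related matrix proteins varied among themselves. Bgn, biglycan, was at 416 and 506 CPM in KO vehicle and 200 and 195 CPM in WT vehicle (1.22 ± 0.19, edgeR adjusted p = 0.102, DESeq2 adjusted p = 7.16e-06), and the calcification inhibitor Mgp at 222 and 206 CPM in KO vehicle and 109 and 77.8 CPM in WT vehicle. Of the 11 tested members 3 had KO values entirely above WT values (16.8% of all tested genes did), 1 entirely below (18.2% of all), and 7 overlapped. Among those 7 was the decorin gene Dcn, at 393 and 596 CPM in KO vehicle and 413 and 380 CPM in WT vehicle (chosen after its values were seen). Of 13 protease inhibitors 11 were positive (median 0.72). Serpinf1, an anti-angiogenic serpin, was at 45.2 and 51.8 CPM in KO vehicle and 22.4 and 20.7 CPM in WT vehicle (1.17 ± 0.184, edgeR adjusted p = 0.102). Timp1, an inhibitor of matrix metalloproteases, was instead carried by 1 library, with 337 and 10.1 CPM in KO vehicle and 3.18 and 1.35 CPM in WT vehicle. Its log2 fold change of 6.29 ± 1.52 was 2.18 without KO vehicle replicate 1. Laminins and other basement membrane genes did not follow the fibrillar matrix: 8 of 22 were positive (median -0.15), and Lama5, the alpha-5 laminin chain, was at 84.3 and 95.5 CPM in KO vehicle and 163 and 209 CPM in WT vehicle (-1.05 ± 0.268, DESeq2 adjusted p = 0.0175). That median was 0.47 without WT vehicle replicate 2, the library with long transcripts high, -0.54 when the library labelled WT vehicle replicate 1 was left out, and 0.01 with length offsets.

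**Figure D3:**
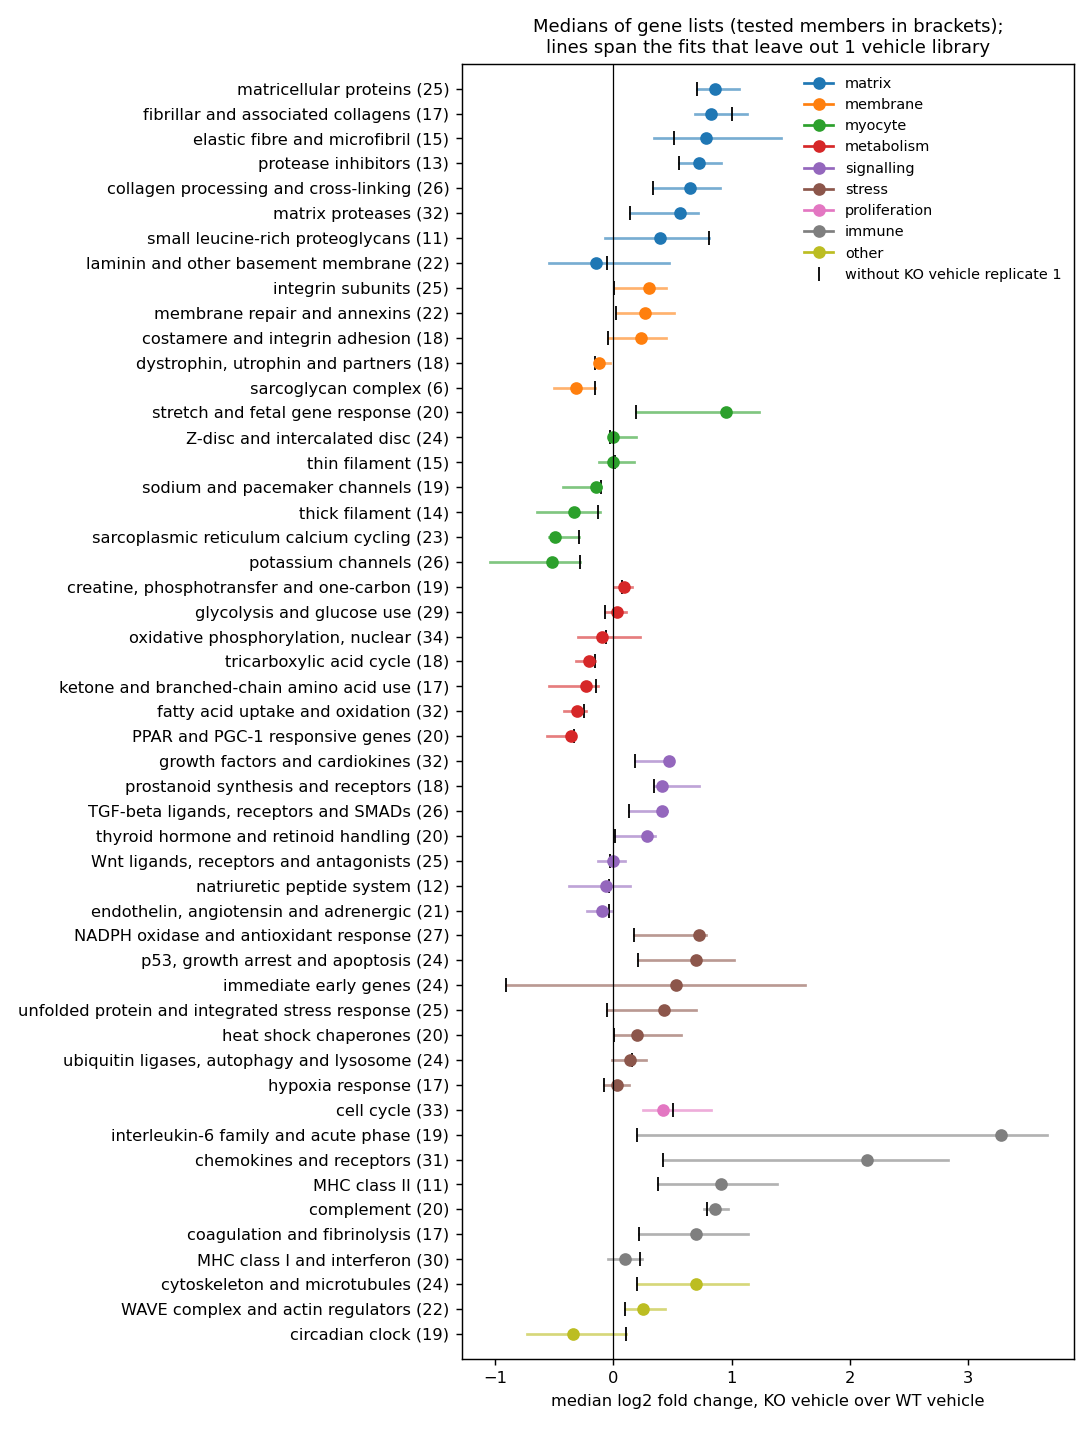
Median log2 fold change of KO vehicle over WT vehicle for each gene list (dots, with the number of tested members in brackets), with lines spanning the fits that leave out 1 vehicle library and a tick for the fit without KO vehicle replicate 1. Collagen, matricellular and complement lists stay above 0 under each of those fits, fatty acid and tricarboxylic acid cycle lists below 0, and the immediate early genes cross it.

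In the TGF-beta list edgeR called no gene and DESeq2 called 3 of 26 higher (2.13% of all tested genes). Tgfb2, a TGF-beta ligand, was at 38.5 and 22.2 CPM in KO vehicle and 9.50 and 8.89 CPM in WT vehicle (1.72 ± 0.272, edgeR adjusted p = 0.102, DESeq2 adjusted p = 9.64e-06). Fstl1, a secreted follistatin-like protein, was at 217 and 239 CPM in KO vehicle and 113 and 91.1 CPM in WT vehicle. Gdf15, a stress-induced cytokine of the family, was at 69.6 and 5.12 CPM in KO vehicle and 1.28 and 1.16 CPM in WT vehicle, and so high mainly in KO vehicle replicate 1. Over the TGF-beta list 19 of 26 were positive, with a median of 0.41 that was 0.13 without that library. The Wnt list had a median of 0.00 with 13 of 25 positive, beside the called Frzb. Sfrp2 and Dkk3, also secreted antagonists, were higher by DESeq2 (adjusted p = 0.00606 and 0.0085). In the thyroid hormone and retinoid list, the receptor gene Thrb was at 9.72 and 15.8 CPM in KO vehicle and 19.3 and 26.9 CPM in WT vehicle (-0.85 ± 0.291, edgeR adjusted p = 0.313), opposite to Dio2.

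Partners of delta-sarcoglycan had somewhat lower values, none called. Sspn, sarcospan, was at 135 and 227 CPM in KO vehicle and 245 and 257 CPM in WT vehicle (-0.47 ± 0.227, edgeR adjusted p = 0.418). Sgcb, beta-sarcoglycan, was at 98.2 and 131 CPM in KO vehicle and 145 and 148 CPM in WT vehicle, and Sgca, alpha-sarcoglycan, at 86.1 and 106 CPM in KO vehicle and 122 and 110 CPM in WT vehicle. These 3 of the 5 tested partners had KO values entirely below WT values (18.2% of all tested genes did) and the other two overlapped. The median of the 5 was that of Sgca, -0.28. With Sgcd included, the list's median of -0.31 was -0.15 with KO vehicle replicate 1 omitted and -0.50 with replicate 2 of that group omitted. Genes of membrane repair had a median of 0.27 with 17 of 22 positive, which was 0.02 with KO vehicle replicate 1 omitted, 0.51 with replicate 2 of that group omitted and 0.40 when the library labelled WT vehicle replicate 1 was left out. DESeq2 called 4 of them higher (2.13% of all tested genes), among them Anxa1, an annexin that gathers at torn membrane, at 42.2 and 36.1 CPM in KO vehicle and 24 and 17.0 CPM in WT vehicle (DESeq2 adjusted p = 0.0214), and Anxa2 at 327 and 83.0 CPM in KO vehicle and 64.7 and 47.3 CPM in WT vehicle (DESeq2 adjusted p = 0.00858).

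Fcrls rose within a macrophage list whose other members had mostly higher values without being called by edgeR. Of 23 tested markers 20 were positive (median 1.02, and 0.74 without KO vehicle replicate 1), 18 had KO values entirely above WT values (16.8% of all tested genes did), and DESeq2 called 11 higher (2.13% of all). Trem2, a lipid-sensing receptor of macrophages, was at 6.79 and 6.12 CPM in KO vehicle and 1.64 and 1.55 CPM in WT vehicle (2.02 ± 0.3, edgeR adjusted p = 0.0962). Lgals3, galectin-3, was at 34.1 and 10.2 CPM in KO vehicle and 2.36 and 2.28 CPM in WT vehicle. Only 3 of the 23 tested markers were negative, and the lowest value was -0.38. Timd4, Folr2, Cd163 and Lyve1, known from resident macrophages, were chosen after their values were seen. They are thus no test of resident macrophages as a group. Their log2 fold changes were -0.09, -0.03, -0.38 and 0.14, and the sign of each but Cd163 depended on which library was left out. The summed level of the list was 707 and 543 CPM in KO vehicle and 372 and 320 CPM in WT vehicle.

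Complement genes were positive in 19 of 20, with a median of 0.86 and 0.79 without KO vehicle replicate 1. C3ar1, the C3a receptor, was at 17.9 and 13.9 CPM in KO vehicle and 6.31 and 7.92 CPM in WT vehicle, and Serping1, the C1 inhibitor, at 158 and 175 CPM in KO vehicle and 94.8 and 87.1 CPM in WT vehicle (DESeq2 adjusted p = 0.00861 and 0.0103; neither was called by edgeR). Chemokines and their receptors rested more on 1 library. Their median was 2.14, with 29 of 31 positive, and 0.42 without KO vehicle replicate 1. Ccl8, a monocyte chemokine, was at 3.82 and 3.34 CPM in KO vehicle and 0.77 and 0.58 CPM in WT vehicle, so both KO libraries carried it. By contrast Ccl12 was at 16.6 and 3.14 CPM in KO vehicle and 1.23 and 0.464 CPM in WT vehicle. MHC class II genes had a median of 0.91 (10 of 11 positive), which was 0.38 without that library and 1.38 without KO vehicle replicate 2. Monocyte and dendritic markers, which the chemokine values accompanied, summed to 315 and 124 CPM in KO vehicle and 56.2 and 93.0 CPM in WT vehicle, and their part in the chemokine values was not tested.

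**Figure D4:**
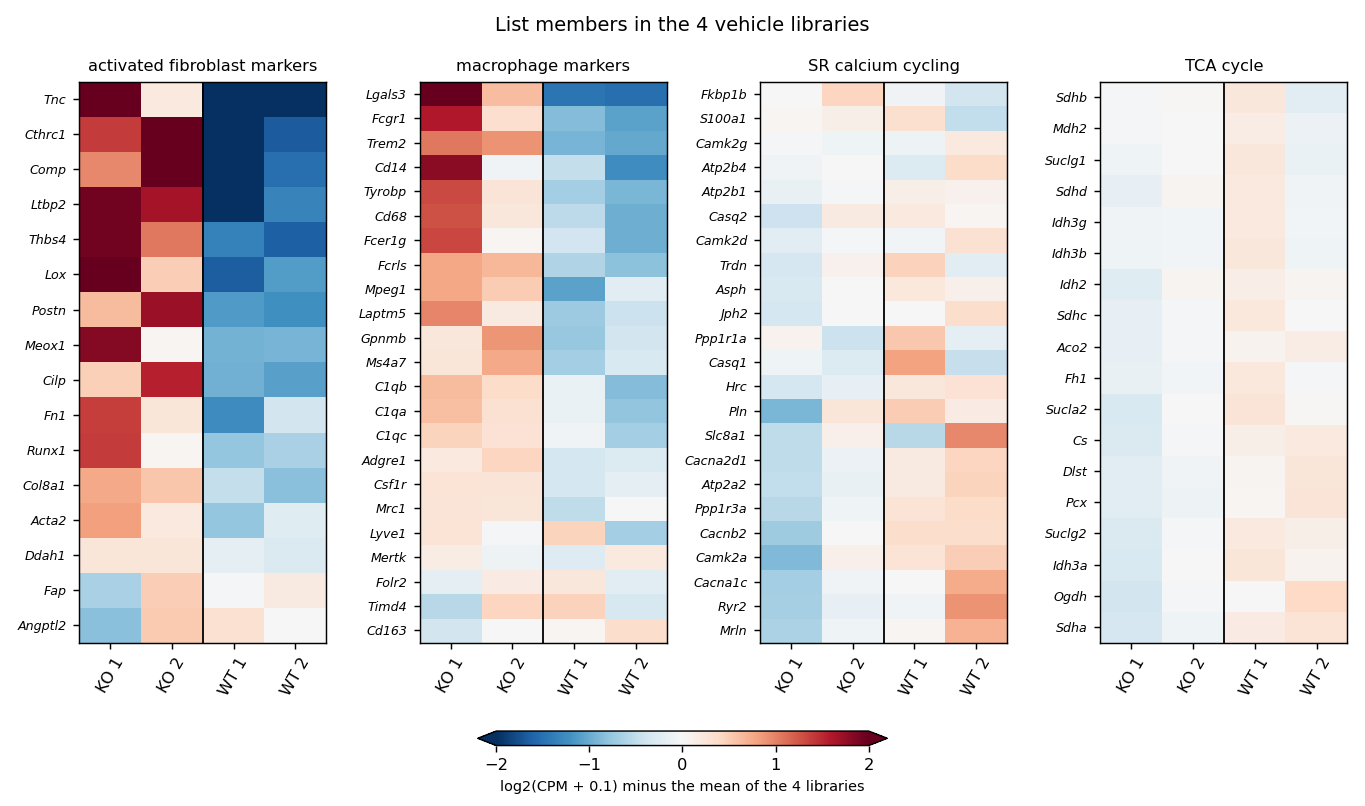
Log2(CPM + 0.1) of list members minus their mean over the 4 libraries, with KO vehicle columns left of WT vehicle columns, for activated fibroblast, macrophage, sarcoplasmic reticulum (SR) calcium and tricarboxylic acid (TCA) cycle genes. Rows run from the highest log2 fold change down, so the top rows of the first 2 panels are red in the KO columns by that order. Several of them are deeper in KO vehicle replicate 1, and the calcium and TCA panels are pale by comparison.

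Myocyte genes that respond to stretch had positive values in 17 of 20, with a median of 0.96. Ankrd1, a titin-binding repressor induced by stretch, was at 6194 and 2865 CPM in KO vehicle and 949 and 713 CPM in WT vehicle, with the smallest p among genes not called by edgeR (2.45 ± 0.34, edgeR adjusted p = 0.0601, DESeq2 adjusted p = 2.55e-10). Nppa, atrial natriuretic peptide, was at 1278 and 923 CPM in KO vehicle and 230 and 209 CPM in WT vehicle. Rcan1, a calcineurin inhibitor, was at 1049 and 131 CPM in KO vehicle and 78.3 and 98.5 CPM in WT vehicle, and its log2 fold change of 2.74 was 0.56 without KO vehicle replicate 1. Over the list that library moved the median most: without it the median was 0.20. The fetal myosin gene Myh7 was high in the other KO library, at 184 and 715 CPM in KO vehicle and 172 and 140 CPM in WT vehicle (1.53 ± 0.527, DESeq2 adjusted p = 0.0459).

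Genes of excitation and relaxation had lower values in KO. Of 23 tested genes of SR calcium cycling 21 were negative, against 51.5% of all tested genes, with a median of -0.49 and 12 whose KO values lay entirely below WT values (18.2% of all). None was called by edgeR or DESeq2. Atp2a2, the SR calcium pump, was at 8874 and 11266 CPM in KO vehicle and 14141 and 16992 CPM in WT vehicle (-0.63 ± 0.196, edgeR adjusted p = 0.285). Hrc, a calcium-binding protein of the SR lumen, was at 627 and 713 CPM in KO vehicle and 937 and 983 CPM in WT vehicle. The list's median was -0.29 without KO vehicle replicate 1 and -0.41 with length offsets. Among potassium channel genes 22 of 26 were negative. Their median of -0.51 was -0.28 with KO vehicle replicate 1 omitted and -1.04 with replicate 2 of that group omitted. Kcnv2, a modifier subunit, was at 2.98 and 3.97 CPM in KO vehicle and 8.52 and 14.4 CPM in WT vehicle (-1.72 ± 0.36, DESeq2 adjusted p = 0.00163), and Kcnj3, a subunit of the acetylcholine-gated channel, at 14.4 and 51.3 CPM in KO vehicle and 80.3 and 85.5 CPM in WT vehicle. Thick filament genes had a median of -0.33, and -0.13 with length offsets. It was -0.11 without WT vehicle replicate 2, -0.13 with KO vehicle replicate 1 omitted and -0.65 with replicate 2 of that group omitted. The giant titin gene Ttn was at 3404 and 4086 CPM in KO vehicle and 4661 and 7594 CPM in WT vehicle, with a log2 fold change of -0.71 that was -0.12 with length offsets.

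Genes of mitochondrial fuel use had slightly lower values in KO almost throughout. All 18 tested genes of the TCA cycle were negative, from -0.42 to -0.03 with a median of -0.21 (-0.04 when the library labelled WT vehicle replicate 1 was left out together with KO vehicle replicate 1, a choice made after seeing the data, and -0.31 without KO vehicle replicate 2). In 13 the KO values lay entirely below the WT values (18.2% of all tested genes). Sdha, a subunit of succinate dehydrogenase, was at 1101 and 1304 CPM in KO vehicle and 1550 and 1677 CPM in WT vehicle. Fatty acid uptake and oxidation genes were negative in 30 of 32 (median -0.30), with 19 whose KO values lay entirely below WT values (18.2% of all). Acsl1, which activates long-chain fatty acids, was at 484 and 716 CPM in KO vehicle and 918 and 1074 CPM in WT vehicle (-0.73 ± 0.225, edgeR adjusted p = 0.28). None of the genes of either list was called by edgeR or DESeq2. Nuclear genes of oxidative phosphorylation had a median of -0.10, which was 0.23 with the library labelled WT vehicle replicate 1 left out and -0.30 with WT vehicle replicate 2 left out. Ventricular myocyte markers had a median of -0.12, which turned to 0.15 when the library labelled WT vehicle replicate 1 was left out and was -0.31 without WT vehicle replicate 2 and -0.03 with KO vehicle replicate 1 omitted. They summed to 65843 and 73661 CPM in KO vehicle and 83556 and 77683 CPM in WT vehicle, and the part of this difference in the metabolic and calcium values was not tested.

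**Figure D5:**
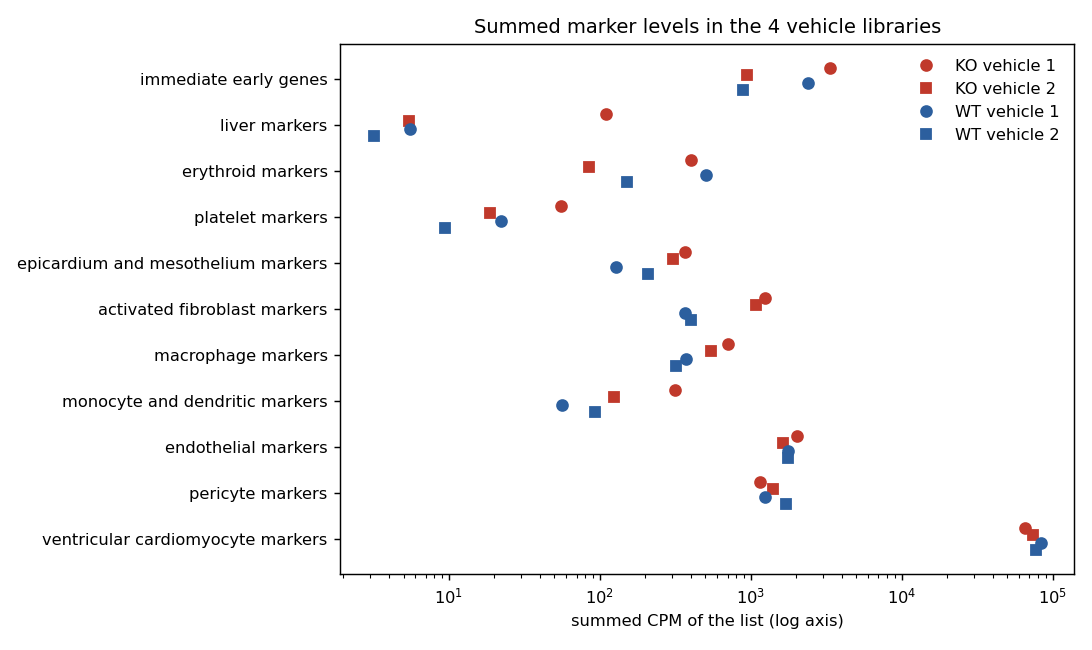
Summed CPM of marker lists in each vehicle library on a log axis, with KO vehicle in red and WT vehicle in blue, circles for replicate 1 and squares for replicate 2. Activated fibroblast and macrophage sums are higher in both KO libraries, liver markers stand out in KO vehicle replicate 1 alone (109 CPM), and immediate early and erythroid sums are high in both libraries numbered 1.

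Further genes with lower values in KO, not called by edgeR, were of several kinds. Pfkfb1, a regulator of glycolysis, was at 3.86 and 4.65 CPM in KO vehicle and 11.7 and 9.78 CPM in WT vehicle (-1.33 ± 0.223, edgeR adjusted p = 0.137, DESeq2 adjusted p = 0.000505). Mme, neprilysin, which degrades natriuretic peptides, was at 2.65 and 5.16 CPM in KO vehicle and 9.55 and 14.5 CPM in WT vehicle. Clcn1, the muscle chloride channel, was at 0.651 and 2.66 CPM in KO vehicle and 7.24 and 9.93 CPM in WT vehicle. Ucp3, a carrier of the inner mitochondrial membrane, was at 7.72 and 16 CPM in KO vehicle and 33.8 and 25.2 CPM in WT vehicle. In all 4 genes the KO values lay entirely below the WT values (18.2% of all tested genes). DESeq2 called them lower (0.315% of all), with the largest adjusted p at 0.00669, for Ucp3. These genes were named for their small p, so neither result is separate support.

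Of 33 tested cell cycle genes 29 were positive, with a median of 0.42, while Pttg1 fell. The median ranged from 0.25, when the library labelled WT vehicle replicate 1 was left out, to 0.83 without WT vehicle replicate 2, and was 0.26 without KO vehicle replicate 2. Mcm6, a subunit of the replicative helicase, was at 13 and 12.3 CPM in KO vehicle and 6.47 and 7.46 CPM in WT vehicle (0.86 ± 0.205, DESeq2 adjusted p = 0.0338). Of the WAVE and actin list, Nckap1l, the blood-cell form of a WAVE subunit, was at 16.5 and 13.2 CPM in KO vehicle and 6.88 and 8.11 CPM in WT vehicle (0.98 ± 0.213, DESeq2 adjusted p = 0.0125), opposite to Cyfip2. Enzymes and receptors of the prostanoid pathway, to which the target of ifetroban belongs, were positive in 16 of 18 (median 0.41, and 0.72 without WT vehicle replicate 2). Ptgis, prostacyclin synthase, was at 65.9 and 33.6 CPM in KO vehicle and 18.8 and 13.4 CPM in WT vehicle (1.63 ± 0.367, DESeq2 adjusted p = 0.00257). Immediate early genes had 1 of 24 members with KO values entirely above WT values (16.8% of all tested genes). Their median of 0.53 was -0.90 with KO vehicle replicate 1 omitted, 1.37 with replicate 2 of that group omitted, 1.62 when the library labelled WT vehicle replicate 1 was left out and 0.01 without WT vehicle replicate 2.

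The genotype difference under ifetroban was set beside the one without drug; the comparisons share no library but share 1 estimate of the spread. Under ifetroban 2 genes were called (0.0131%), Pttg1 at -4.65 and Cyfip2 at -2.99, close to their values of -4.87 and -3.19 without drug. The 6 genes that rose without drug had smaller positive values under ifetroban: Thbs4 1.17 against 3.06 without drug, Ltbp2 1.54 against 3.54, Frzb 0.52 against 2.10, Dio2 0.97 against 2.82, Cthrc1 2.25 against 4.87 and Fcrls 1.04 against 1.44. In edgeR the test of the difference between the 2 genotype effects called 0 genes, with 211 (1.38%) at an unadjusted p under 0.05, and DESeq2 called 0. For Thbs4 the difference was 1.90 ± 0.375 (unadjusted p = 0.00055, adjusted p = 0.9998). The smaller values under ifetroban are therefore not shown to differ. The 6 genes were also chosen by their values without drug, which by itself favours smaller values in the other comparison.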

How the data were processed

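Polyadenylated RNA of left ventricle was sequenced in 9 libraries. The authors deposited read counts per gene; the submitters' processing notes name STAR 2.5.2b, HTSeq and GRCm38. The reverse-strand column was used, and the 4 rows that name no gene, 28.7% to 31.9% of the vehicle libraries' entries, were left out. Of 49671 gene IDs 49412 matched GENCODE, and 15261 passed edgeR's filterByExpr. Counts were normalised by TMM and tested with edgeR 4.0.16 (quasi-likelihood, R 4.3.3) over all 9 libraries in 4 groups, which leaves 5 residual degrees of freedom. P-values were adjusted by Benjamini-Hochberg over all tested genes. DESeq2 1.42.0, other filters and scalings and leaving out each library were alternatives. CPM values are counts over the TMM-scaled library total. An exact permutation test of 2 against 2 libraries cannot give a p under 0.333. The scripts were tested on simulated data. Length offsets remove each library's trend with transcript length.

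The gene lists, and the genes in them, were chosen with earlier results of these data known. Named genes are Sgcd, all called genes, the 12 higher and 12 lower protein-coding genes of lowest p whose groups did not overlap (mean log2 CPM of at least 1), and up to 4 of lowest p per list.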

Additional observations from a re-analysis of the deposited data

How the results depend on the processing

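DESeq2 called 325 genes higher and 48 lower. Without a filter on low counts 891 were higher, 304 lower and 73 differed in the interaction, among 27246 tested, and Sgcd, at -1.05, was called. With only the 4 vehicle libraries 2 were higher and 2 lower, and with length offsets 16. Leaving out 1 library at a time gave 0 to 1095 genes higher and 1 to 582 lower, with 0 interaction calls each time. Leaving out the library labelled WT vehicle replicate 1 together with KO vehicle replicate 1, chosen after seeing the data, left 1 higher and 1 lower. The cause of these changes was not tested. With the replicate number as a block 39 were higher and 6 lower. The labels do not say that the numbers mark shared animals or batches. The deviations of KO vehicle replicate 1 and of the library labelled WT vehicle replicate 1 from their group means correlated at 0.18 over genes. Genes are not independent, and with 2 libraries per group replicate 2 gives the same value. RLE size factors and counts without regard to strand each gave 6 higher and 2 lower, as in the report. Of 72 list medians, 34 moved by more than the replicate SD when KO vehicle replicate 1 was left out, and 17 when replicate 2 of that group was; the numbers were 19 for the library labelled WT vehicle replicate 1 and 18 for WT vehicle replicate 2. Small values of 4 genes changed sign. Leaving out 1 library at a time, Folr2 ranged over -0.24 to 0.20, Lyve1 over -0.33 to 0.81, Timd4 over -0.70 to 0.36 and Dcn over -0.012 to 0.58. Counted without regard to strand Folr2 was at 0.28, and with both libraries left out Folr2 was at 0.37 and Timd4 at 0.78.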

Other observations

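Several gene groups outside the report had higher or lower values in KO vehicle, with no gene called by edgeR. Of 27 tested genes of NADPH oxidase and the antioxidant response 24 were positive, with a median log2 fold change of 0.72 that was 0.17 without KO vehicle replicate 1. Gpx3, a secreted glutathione peroxidase, was at 304 and 299 CPM in KO vehicle, against 193 and 134 CPM in WT vehicle. Of 24 genes of p53 signalling, growth arrest and apoptosis 18 were positive (median 0.70, which was 0.21 without that library and 0.46 without WT vehicle replicate 2). Coagulation and fibrinolysis genes had a median of 0.70 (0.22 without it and 1.14 without KO vehicle replicate 2). Genes of the unfolded protein response had one of 0.43, which turned to -0.05 without KO vehicle replicate 1, was 0.24 without WT vehicle replicate 2, and was 0.70 when the library labelled WT vehicle replicate 1 was left out and 0.66 without KO vehicle replicate 2. Clock genes had a median of -0.34, which turned to 0.11 with KO vehicle replicate 1 omitted, was -0.73 with replicate 2 of that group omitted, and was -0.10 when the library labelled WT vehicle replicate 1 was left out. Of 19 clock genes 1 had KO values entirely above WT values (16.8% of all tested genes) and 1 entirely below (18.2% of all). In Dbp and Arntl (chosen, like Cry1, after their values were seen) the libraries of each group lay further apart than the group means. Dbp was at 21.6 and 195 CPM in KO vehicle and 229 and 46.9 CPM in WT vehicle. Arntl, opposite in order, was at 21.4 and 3.14 CPM in KO vehicle and 2.52 and 19.3 CPM in WT vehicle. Cry1 varied little, at 10.2 and 10.9 CPM in KO vehicle and 9.80 and 9.85 CPM in WT vehicle.

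Markers of other cell types gave the following values. Endothelial markers summed to 2008 and 1628 CPM in KO vehicle and 1759 and 1768 CPM in WT vehicle, with a median of 0.11 that turned to -0.16 with KO vehicle replicate 1 omitted and was 0.23 with replicate 2 of that group omitted. The pericyte median of 0.07 turned to -0.05 when the library labelled WT vehicle replicate 1 was left out. The smooth muscle median of 0.39 was 0.07 with KO vehicle replicate 1 omitted and 0.64 with replicate 2 of that group omitted. Mast cell markers summed to 12.4 and 12.1 CPM in KO vehicle and 7.75 and 10.01 CPM in WT vehicle, with 5 of 5 tested positive and a median of 0.69, or 0.37 without KO vehicle replicate 1. B cell markers had a median of -0.25, which was -0.04 with KO vehicle replicate 1 omitted, -0.59 with replicate 2 of that group omitted and -0.05 without WT vehicle replicate 2. Markers of T and NK cells had one of 0.91, which was 0.49 without KO vehicle replicate 1 and 0.44 when the library labelled WT vehicle replicate 1 was left out. Of these 5, 2 had KO values entirely above WT values (16.8% of all tested genes).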
